A study of Mus musculus with 64 samples.

Results

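The comparison described here set the dorsal hippocampus (dHPC) of WT male mice given corticosterone (CORT), the main glucocorticoid hormone of rodents, against that of WT males given vehicle. All 18283 genes of the deposited table of this comparison were taken, out of 21114 genes measured in the dHPC or the ventral hippocampus (vHPC) across the study. The mice were C57BL/6 males of the labelled genotype Wild Type, assigned at 2 months of age to drinking water with vehicle (1% ethanol) or with CORT (25 mg/l, in 1% ethanol) for 6 weeks. The series design text gives a different duration, and a protocol text gives a different number of replicates than the 4 libraries per group that the labels list. Each of the 8 libraries, M WT Veh dHPC 1 to 4 and M WT CORT dHPC 1 to 4 in the labels, held bulk RNA pooled from 2 animals of a group, with left and right sides mixed at random. The study has 64 libraries in 16 groups, with both sexes and with hMet mice, which are heterozygous for the BDNF Val66Met variant.

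Corticosterone binds the mineralocorticoid receptor (Nr3c2) and the glucocorticoid receptor (Nr3c1), both present in hippocampal neurons. The glucocorticoid receptor moves to the nucleus when it binds hormone and acts at DNA elements made of inverted repeats, raising genes such as Fkbp5, Tsc22d3, Sgk1 and the metallothioneins. Glia carry the receptor too: astrocytes, which take up glutamate and supply neurons with lipids and metabolites, and microglia, the resident macrophages of the brain, whose immune genes glucocorticoids are known to restrain. The comparison asks which of these programmes differed in the dHPC after weeks of hormone in the drinking water.

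The values are those of the authors' limma-voom fit: for each gene an average expression in log2 CPM, which scales counts to library size but not to gene length and is taken over all dHPC libraries, a log2 fold change and its test. A value above 0 was taken to mean more RNA in the CORT group, a direction that the table itself does not name. Values per library were not analysed here, so every error below is the moderated standard error (SE) of the fit and not a spread over libraries. The fit pooled the spread of all 32 dHPC libraries, with 24 residual degrees of freedom. Markers of hippocampal cells were expressed in the dHPC fit: Camk2a of excitatory neurons averaged 12.12 log2 CPM, Prox1 of dentate granule cells 7.13 and Wfs1 of CA1 neurons 7.50. Markers of bordering tissue were expressed too: Ttr and Kl of choroid plexus averaged 9.98 and 6.18, and Prkcd and Tcf7l2 of thalamus 5.65 and 3.34. No reference levels of other tissues were compared. In bulk tissue, fewer cells of a type and less RNA per cell cannot be told apart.

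Genes were called at an unadjusted p under 0.05 with a fold change (FC) over 1.3, thresholds that the study's text names, and the words rose and fell are kept for genes past it. Of 18283 genes 156 rose (0.853%) and 229 fell (1.25%). Without the fold filter 831 genes (4.55%) had a p under 0.05, of which 367 were higher (2.01%) and 464 lower (2.54%), where unchanged genes would give 5%. At a p under 0.001 there were 32 genes (0.175%). After Benjamini-Hochberg adjustment over all genes in limma's test, 0 genes were under 0.05 and the smallest adjusted p was 0.122. With the unmoderated errors 0 genes were under 0.05 after adjustment and 854 were under 0.05 before it. Each call below is therefore a candidate that did not pass the correction for all genes.

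Precision depended on expression. Among the 5849 genes averaging over 5 log2 CPM the median SE was 0.09 and 22 genes were called. Among the 2637 genes under 0 log2 CPM it was 0.39 and 129 were called. The median 95% interval extended 0.17 to either side in the first group and 0.79 in the second. Of the 385 calls 181 averaged at least 1 log2 CPM (75 that rose, 106 that fell), and 94 of the 385 were predicted genes without an established name.

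**Figure D1:**
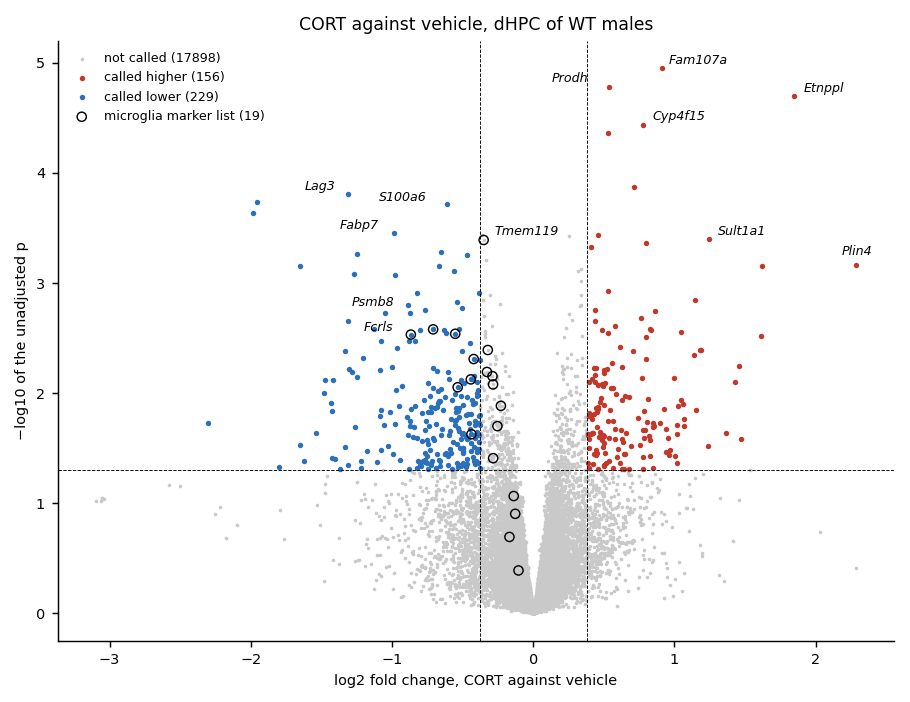
Log2 fold change of CORT against vehicle (x axis) and −log10 of the unadjusted p (y axis) for all 18283 genes in the dHPC of WT males; dashed lines mark the thresholds of p and FC. The 156 genes that rose are red, the 229 that fell are blue, and the circled 19 microglia markers all lie left of 0.

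The smallest p of the comparison belonged to Fam107a, an actin-binding protein known to be induced by stress and glucocorticoids. It lies on chromosome 14 of GRCm38 from 8296274 to 8318023 on the minus strand (ENSMUSG00000021750) and averaged 8.63 log2 CPM. With CORT it rose by a log2 fold change of 0.91 (SE 0.17, 95% interval 0.56 to 1.26, adjusted p = 0.122 in limma), a 1.88-fold higher level. Plin4, a coat protein of lipid droplets, had the largest fold change among the genes that rose, 2.29 (SE 0.59, 95% interval 1.07 to 3.51), or 4.88-fold. Sult1a1, a sulfotransferase of phenols and catecholamines, rose by 1.25 (SE 0.31). Mt1, a metal-binding metallothionein, rose by 0.48 (SE 0.15). Exons of Plin4 and of Sult1a1 overlap genes on the opposite strand (Hdgfl2 and Sgf29). The library kit keeps strand, but the strand setting of the counting is not given in the sources used here.

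These 4 genes belong to a list of 26 glucocorticoid-inducible genes, all of them measured. In that list 6 genes rose and 0 fell, against 0.853% and 1.25% of all genes, and 8 were higher at a p under 0.05 without the fold filter. The other two that rose were Cdkn1a, an inhibitor of cyclin-dependent kinases (0.74, SE 0.29), and Pdk4, the kinase that switches off pyruvate dehydrogenase (0.39, SE 0.16). Fkbp5, the co-chaperone that lowers the hormone affinity of the receptor, was at 0.32 (SE 0.14, adjusted p = 0.989 in limma), under the fold threshold. Mt2 was at 0.29 (SE 0.14). The list median was 0.28, beside 0.00 over all genes, and 24 of the 26 log2 fold changes were above 0. The sign was read as the one in which such genes are higher in males, so their direction is not an independent result. Sgk1, a kinase of ion transport, was at 0.17 (SE 0.22) and Tsc22d3, which encodes the anti-inflammatory protein GILZ, at 0.05 (SE 0.23), so their 95% intervals, -0.28 to 0.61 and -0.43 to 0.53, include both no change and a rise of the size seen for Fkbp5.

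RefSeq promoters, from 250 bases before to 50 after the start of the transcript, were searched for the inverted repeat that the receptor binds. The motif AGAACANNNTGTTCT was in 0 of the 99 genes that rose and have a promoter in the table, in 0 of 153 that fell and in 1 of 12382 measured genes. A looser palindrome, GNACANNNTGTNC, read on both strands, was in 3 of the 99 (3.03%), in 0 of the 153 and in 53 of the 12382 (0.428%), and in 156 of all 32851 promoters of the table (0.475%). The single arm AGAACA, which is part of the first motif, was in 13 of the 99 (13.1%), 30 of the 153 (19.6%) and 1912 of the 12382 (15.4%). The 3 genes with the looser palindrome were Fam107a, Mt1 and Folh1. Their promoters are shown because they carry it, in GRCm38.p6 and read along the gene, with the palindrome in capitals; a match of letters is a description and not a measured site. Fam107a is chr14:8309730-8310029 (minus strand), with the match starting 118 bases before the transcript start, Folh1 is chr7:86775815-86776114 (minus strand), 198 bases before, and Mt1 is chr8:94178839-94179138 (plus strand), 94 bases before. Another listed Fam107a promoter, not shown, holds the same match at -120 from its own transcript start. These Fam107a starts lie inside the gene span given above, and counts per gene cannot tell which transcript rose.
Fam107a: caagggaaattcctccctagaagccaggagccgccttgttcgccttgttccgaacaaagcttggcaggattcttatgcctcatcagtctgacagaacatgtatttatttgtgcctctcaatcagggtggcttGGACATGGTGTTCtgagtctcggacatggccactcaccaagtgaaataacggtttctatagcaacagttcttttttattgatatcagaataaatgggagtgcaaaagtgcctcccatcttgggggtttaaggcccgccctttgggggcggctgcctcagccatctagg
Folh1: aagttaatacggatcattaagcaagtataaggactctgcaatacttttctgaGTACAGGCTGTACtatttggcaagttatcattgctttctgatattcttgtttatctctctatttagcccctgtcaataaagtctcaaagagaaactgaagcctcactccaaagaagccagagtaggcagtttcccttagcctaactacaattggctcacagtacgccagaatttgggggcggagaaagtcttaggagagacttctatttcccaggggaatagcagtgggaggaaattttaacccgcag
Mt1: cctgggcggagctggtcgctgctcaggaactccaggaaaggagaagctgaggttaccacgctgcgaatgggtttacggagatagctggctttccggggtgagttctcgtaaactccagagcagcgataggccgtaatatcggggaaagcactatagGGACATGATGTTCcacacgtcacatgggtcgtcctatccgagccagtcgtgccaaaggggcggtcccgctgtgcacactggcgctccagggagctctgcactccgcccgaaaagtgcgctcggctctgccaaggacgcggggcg

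The next smallest p values among the genes that rose were those of enzymes. Prodh, the mitochondrial enzyme that starts proline breakdown (chromosome 16, 18060357 to 18090203), rose by 0.54 (SE 0.10, adjusted p = 0.122). Etnppl, which cleaves phosphoethanolamine in astrocytes (chromosome 3, 130617448 to 130637521), rose by 1.85 (SE 0.36, 95% interval 1.12 to 2.58). Cyp4f15, a fatty acid hydroxylase of the cytochrome P450 family, rose by 0.78 (SE 0.16). These 3 are among the 4 genes that rose in a list of 16 amino acid and lipid catabolic enzymes, in which 0 fell, beside 0.853% and 1.25% of all genes. The fourth is not reported here. The 12 of the list that were not called had log2 fold changes from -0.17 to 0.38, and the list median was 0.09. Aass, which starts lysine breakdown, was the highest of these at 0.38 (SE 0.25) and Cpt1a, which admits fatty acids to mitochondria, was at -0.06 (SE 0.18).

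Other enzymes were among the 20 named genes of smallest p that rose. Acot11, an acyl-CoA thioesterase, rose by 0.53 (SE 0.11, adjusted p = 0.158 in limma), and its exons overlap Fam151a on the opposite strand. Folh1, the peptidase that releases glutamate from N-acetylaspartylglutamate, rose by 0.71 (SE 0.16). Pnpla7, a lysophospholipase, rose by 0.43 (SE 0.13). Heph, a copper-dependent ferroxidase, rose by 0.58 (SE 0.17). Cyp1b1, a cytochrome P450 that acts on oestradiol and retinol, rose by 0.80 (SE 0.25). Gstm2-ps1, a pseudogene of a glutathione transferase, was at 0.43 (SE 0.13), a value that is uncertain because the family members are alike in sequence.

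The rest of the 20 were adhesion, signalling and junction genes. Gjb6, the astrocyte gap junction protein connexin 30, rose by 0.53 (SE 0.16). Epha10, a member of the ephrin receptor family, rose by 0.46 (SE 0.11). Kirrel2, an adhesion molecule of the nephrin family, rose by 0.53 (SE 0.15), Icosl, the ligand of a T cell costimulator, by 0.41 (SE 0.10) and Grem1, an antagonist of bone morphogenetic proteins, by 0.71 (SE 0.23). Arhgef37, of a family of guanine nucleotide exchange factors, rose by 0.80 (SE 0.20) at a low average expression.

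**Figure D2:**
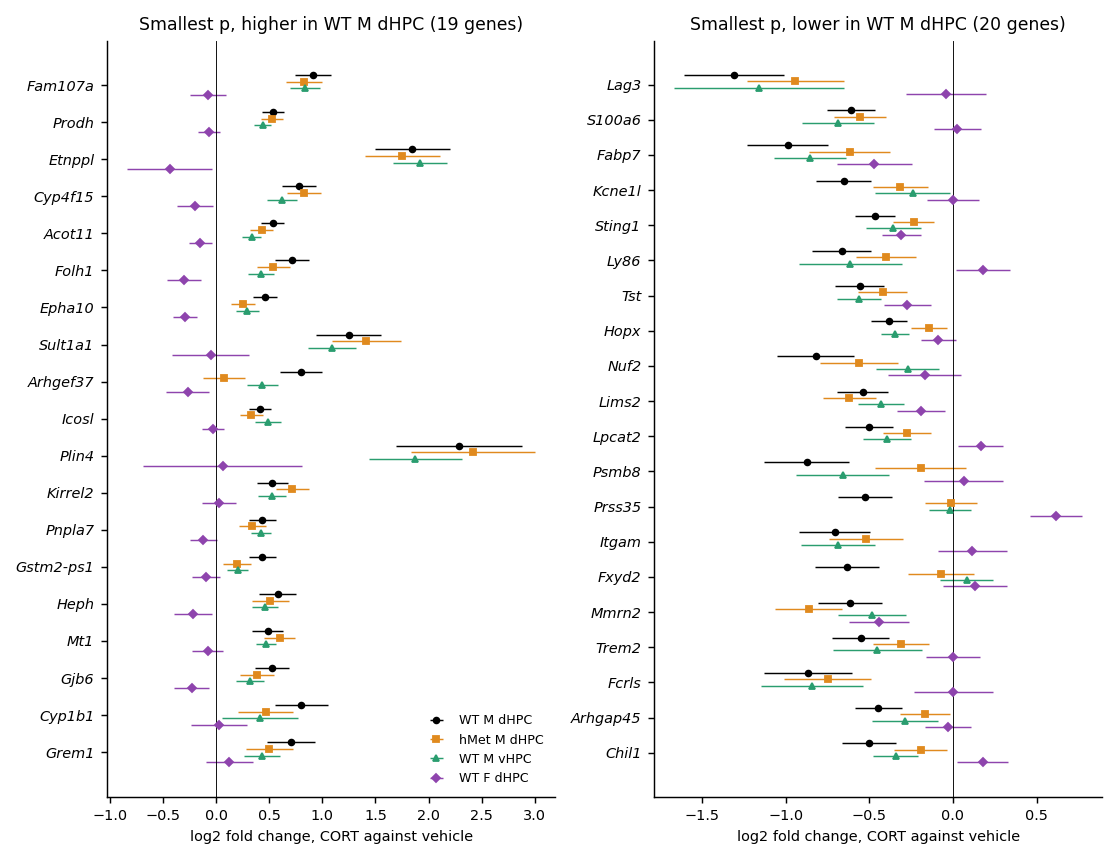
Log2 fold change of CORT against vehicle (x axis; symbols with bars of 1 moderated SE) of the genes of smallest p that rose (left, 19 of the 20 named) and fell (right, 20) in the dHPC of WT males, in 4 comparisons that share no libraries: WT males dHPC (black), hMet males dHPC (orange), WT males vHPC (green) and WT females dHPC (purple). Fam107a is at 0.91, 0.83, 0.84 and -0.08 in that order, and Prss35 at -0.53, -0.01, -0.02 and 0.62.

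A list of microglia markers was lower throughout. All 19 markers of the microglia list had a log2 fold change under 0, from -0.87 to -0.10 with a median of -0.32. Of the 19, 7 fell and 0 rose, beside 1.25% and 0.853% of all genes, and 15 of the 19 were lower at a p under 0.05, beside 2.54% of all genes. Tmem119, a defining marker of microglia, had the smallest p of the list and a log2 fold change of -0.35 (SE 0.09, 95% interval -0.53 to -0.17, adjusted p = 0.465), just short of the fold threshold. Genes of one cell type share the libraries and tend to move together, so the 19 values are not 19 independent measurements.

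Fcrls, an Fc receptor-like protein of mouse microglia (chromosome 3, 87250758 to 87263738), fell by 0.87 (SE 0.27, 95% interval -1.41 to -0.32) on the log2 scale, the largest fall of the list. Itgam, which encodes the complement receptor subunit CD11b, was at -0.71 (SE 0.22), and its exons overlap Gm49368 on the same strand. Trem2, a receptor for lipids and cell debris, was at -0.55 (SE 0.17), and Aif1, the actin-bundling protein Iba1 used to stain microglia, was at -0.54 (SE 0.19). The purinergic receptors P2ry12 and P2ry13, which guide microglial processes to ATP and ADP, were both at -0.44 (SE 0.18 and 0.15), and the orphan receptor Gpr34 was at -0.42 (SE 0.14). The other lower genes at a p under 0.05 moved less. The complement genes C1qa, C1qb and C1qc were at -0.28, -0.25 and -0.29 (SE 0.10 each), the growth factor receptor Csf1r at -0.23 (SE 0.09) and the chemokine receptor Cx3cr1 at -0.28 (SE 0.13). Siglech and Sall1, at -0.17 (SE 0.13) and -0.10 (SE 0.12), were among the 4 markers with p values above 0.05.

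**Figure D3:**
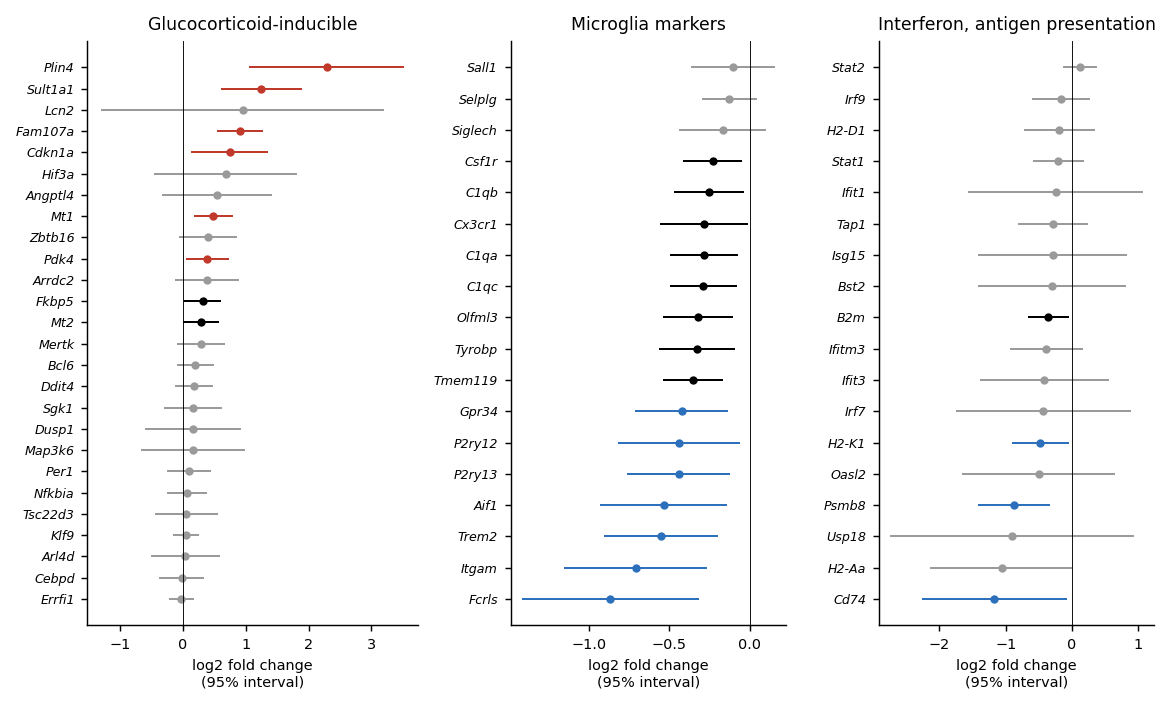
Log2 fold change with 95% interval (x axes) of the members of 3 gene lists in the dHPC of WT males: 26 glucocorticoid-inducible genes, 18 of the 19 microglia markers and 18 interferon and antigen presentation genes. Members that rose are red, those that fell blue, those at a p under 0.05 but under the fold threshold black, and the others grey; 6 of 26 are red in the glucocorticoid list, and 7 microglia markers and 3 interferon genes are blue in the other lists.

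Genes of interferon response and antigen presentation had wide intervals. Of 18 genes 3 fell and 0 rose, beside 1.25% and 0.853% of all genes, and 4 were lower at a p under 0.05, beside 2.54%. Log2 fold changes were under 0 for 17 of the 18, with a median of -0.37. Psmb8, a catalytic subunit of the immunoproteasome, was at -0.87 (SE 0.26), H2-K1, a class I histocompatibility heavy chain with close relatives in the genome, at -0.48 (SE 0.20), and Cd74, the invariant chain of class II molecules, at -1.18 (SE 0.53). B2m, the light chain of class I molecules, was at -0.36 (SE 0.14), under the fold threshold. The inducible genes Ifit1, Ifit3, Isg15 and Irf7 were at -0.25, -0.42, -0.29 and -0.44, with SEs of 0.47 to 0.64, so that neither a rise nor a fall could be told at this precision.

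Several of the 20 named genes of smallest p that fell are also known from immune cells. Lag3, an inhibitory receptor that binds class II molecules (chromosome 6, 124904361 to 124911705), had the smallest p of the genes that fell and a log2 fold change of -1.31 (SE 0.30, 95% interval -1.93 to -0.70, adjusted p = 0.392 in limma), a level 0.403 times that of vehicle. Ly86, a partner of a Toll-like receptor homologue, was at -0.67 (SE 0.18). Sting1, the receptor for cyclic dinucleotides, was at -0.47 (SE 0.12). Lpcat2, which makes platelet-activating factor, was at -0.50 (SE 0.15), and Arhgap45, a GTPase-activating protein of blood cells, was at -0.45 (SE 0.14). These genes were on none of the lists. Exons of Epha10, Heph, Cdkn1a, Lpcat2, Psmb8 and P2ry12 overlap an annotated gene of the opposite strand, and those of Top2a and Cd74 one of the same strand, which makes their counts less certain.

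Astrocyte markers split. Of 18 markers 1 rose, Gjb6, and 3 fell, beside 0.853% and 1.25% of all genes. At a p under 0.05, 4 were higher and 4 lower, beside 2.01% and 2.54%, and the list median was 0.02. Fabp7, the fatty acid-binding protein of radial glia and astrocytes, was at -0.99 (SE 0.24, 95% interval -1.49 to -0.49, adjusted p = 0.465), the lowest of the list and a level 0.504 times that of vehicle. Aqp4, the water channel of astrocyte endfeet, was at -0.56 (SE 0.20) and Gfap, the intermediate filament of astrocytes, at -0.53 (SE 0.20). S100b was at -0.26 (SE 0.11), under the fold threshold. On the other side Aldoc, a glycolytic aldolase, was at 0.35 (SE 0.11), Glul, glutamine synthetase, at 0.21 (SE 0.07) and Aldh1l1, of folate metabolism, at 0.28 (SE 0.13). The glutamate transporters Slc1a2 and Slc1a3 were at 0.04 (SE 0.15) and 0.02 (SE 0.08), and the gap junction gene Gja1 at -0.02 (SE 0.09).

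The remaining named genes that fell were of mixed kinds. S100a6, a calcium-binding protein, was at -0.61 (SE 0.14, adjusted p = 0.392). Tst, the sulfurtransferase rhodanese, was at -0.56 (SE 0.15), Chil1, a chitinase-like secreted protein, at -0.50 (SE 0.16) and Prss35, a serine protease homologue, at -0.53 (SE 0.16). Kcne1l, a potassium channel subunit, was at -0.66 (SE 0.17), Lims2, an adaptor of focal adhesions, at -0.54 (SE 0.15) and Fxyd2, a regulator of the sodium pump, at -0.63 (SE 0.19). Exons of Lims2 overlap the oligodendrocyte precursor gene Gpr17 on the opposite strand, and Gpr17 itself was at -0.33 (SE 0.13).

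In a list of 16 adult neurogenesis and proliferation genes, which mark dividing cells and neural stem cells, 2 fell and 0 rose, beside 1.25% and 0.853% of all genes. Log2 fold changes were under 0 for 14 of the 16, beside 9337 of all 18283 genes, and the median was -0.14. Hopx, a marker of quiescent stem cells of the dentate gyrus, was at -0.38 (SE 0.11), at the edge of the fold threshold and not called after centring on the median of all genes, and its exons overlap Hopxos on the opposite strand. Top2a, the topoisomerase of dividing cells, was at -0.65 (SE 0.23) with an average under 1 log2 CPM. Nuf2, a kinetochore protein outside the list, was at -0.82 (SE 0.23). Mki67, the proliferation antigen, was at -0.46 (SE 0.27), Nes of stem cells at -0.33 (SE 0.20) and Dcx of immature neurons at -0.04 (SE 0.14).

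Markers of the oligodendrocyte lineage gave 1 call, a gene that fell, beside 1.25% of all genes. Of 12 precursor genes Enpp6, of newly forming oligodendrocytes, fell by 0.66 (SE 0.31), a call lost with the unmoderated error, while Pdgfra and Cspg4, which define the precursors, were at 0.11 (SE 0.11) and 0.09 (SE 0.09). Of 16 myelin markers 0 were called and 14 had log2 fold changes under 0, with a median of -0.13. Vessel markers split as well, with 1 endothelial gene called in each direction, beside 0.853% of all genes that rose and 1.25% that fell. Of 19 endothelial genes Mfsd2a, the transporter of lysophospholipids carrying omega-3 fatty acids, rose by 0.50 (SE 0.17), Mmrn2, an endothelial matrix protein, fell by 0.62 (SE 0.19), and the median was -0.03. Cldn5, the main tight junction claudin, was at 0.19 (SE 0.13). Of 11 pericyte and smooth muscle genes 0 were called, and Rgs5 was at -0.30 (SE 0.14). Of 12 genes of meningeal fibroblasts and collagen 1 rose, the GABA and taurine transporter Slc6a13 (0.89, SE 0.36), beside 0.853% of all genes.

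The receptors of the hormone did not pass the test. Nr3c1 was at -0.03 (SE 0.10, 95% interval -0.23 to 0.18) and Nr3c2 at -0.09 (SE 0.20, 95% interval -0.51 to 0.32). Of 14 genes for corticosteroid receptors, their chaperones, coregulators and steroid enzymes 1 fell and 0 rose, beside 1.25% and 0.853% of all genes. It was Hsd11b1, which regenerates active corticosterone from its inert form inside cells, at -0.38 (SE 0.15, adjusted p = 0.988 in limma), at the edge of the fold threshold. The chaperones Hsp90aa1, Hsp90ab1 and Fkbp4 were at -0.03, -0.01 and -0.02, with SEs of 0.06 to 0.09. Hsd11b2 is not in the table.

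Neuronal lists held no called gene. The 22 glutamate receptor genes had a median of 0.06 and a range from -0.25 to 0.20, with Gria1 at 0.15 (SE 0.15) and Gria2 at 0.18 (SE 0.13). The 18 genes of GABA receptors and GABA synthesis had a median of 0.10, with 14 above 0. Among 16 neuropeptide genes, with a median of -0.05 (0.07 over those averaging 1 log2 CPM or more), Cck was at -0.20 (SE 0.12), Npy at -0.25 (SE 0.19) and Sst at 0.01 (SE 0.16). Among 9 neurotrophin genes Bdnf was at 0.11 (SE 0.16, 95% interval -0.23 to 0.44) and its receptor Ntrk2 at 0.16 (SE 0.10). The 17 monoamine receptors had a median of 0.12, with the serotonin receptor Htr1a at 0.03 (SE 0.17).

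Immediate early genes, which report recent neuronal activity, had a median of 0.28 with 15 of 16 above 0, but their SEs were large and 0 were called. Arc was at 0.41 (SE 0.40), Fos at 0.47 (SE 0.76) and Npas4 at 0.84 (SE 0.53). Btg2 alone of the 16 had a p under 0.05, at 0.36 (SE 0.14). Of 17 clock genes 0 were called, and Dbp, a clock output gene, was at -0.30 (SE 0.12). Tissue of the study was taken late in the light phase, and the hour for each library was not used here.

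Of 18 genes of cholesterol synthesis and uptake 1 fell and 0 rose, beside 1.25% and 0.853% of all genes. At a p under 0.05, 5 were lower, beside 2.54%, and the median was -0.10. Fdps, farnesyl diphosphate synthase, was at -0.43 (SE 0.16), but it overlaps Gm43738 on the same strand, so its count is uncertain. Hmgcs1, Nsdhl, Dhcr7 and Mvd were at -0.21, -0.22, -0.19 and -0.26, with SEs of 0.08 to 0.11. Among 10 iron genes Tfrc, the transferrin receptor, was at 0.25 (SE 0.07, adjusted p = 0.681), under the fold threshold, and 0 were called.

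Housekeeping groups had small medians. Of 85 cytosolic ribosomal protein genes 0 were called, 83 had log2 fold changes under 0 and the median was -0.10. Of 75 oxidative phosphorylation genes 0 were called, 62 were under 0 and the median was -0.06. Over all genes 9337 of 18283 were under 0. In the dHPC of hMet males the medians of these 2 lists were 0.05 and 0.14. Genes of a list share the libraries, so these values are not independent measurements. The 20 histone deacetylases and acetyltransferases had a median of 0.02, the 14 genes of DNA methylation 0.01 and the 13 heat shock genes 0.00, with 0 called in each. The 6 dentate gyrus markers had a median of 0.02 and the 10 markers of CA1, CA2 and CA3 one of -0.04, with 0 called.

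Markers of tissue that borders the dHPC were measured because a dissection can include it. The 10 choroid plexus markers were all under 0 with a median of -0.53, and their median SE was 1.72. Kl, a choroid plexus and dentate gene, was at -0.63 (SE 0.82). The 7 ependymal markers were all under 0 (median -0.44, median SE 0.75), the 11 thalamic and striatal markers had a median of 0.07 (median SE 0.47; -0.01 over those averaging 1 log2 CPM or more), and the 5 red blood cell genes were all above 0 (median 0.65, median SE 0.42). None of the 33 genes of these 4 lists was called. Their part in the results above was not tested.

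**Figure D4:**
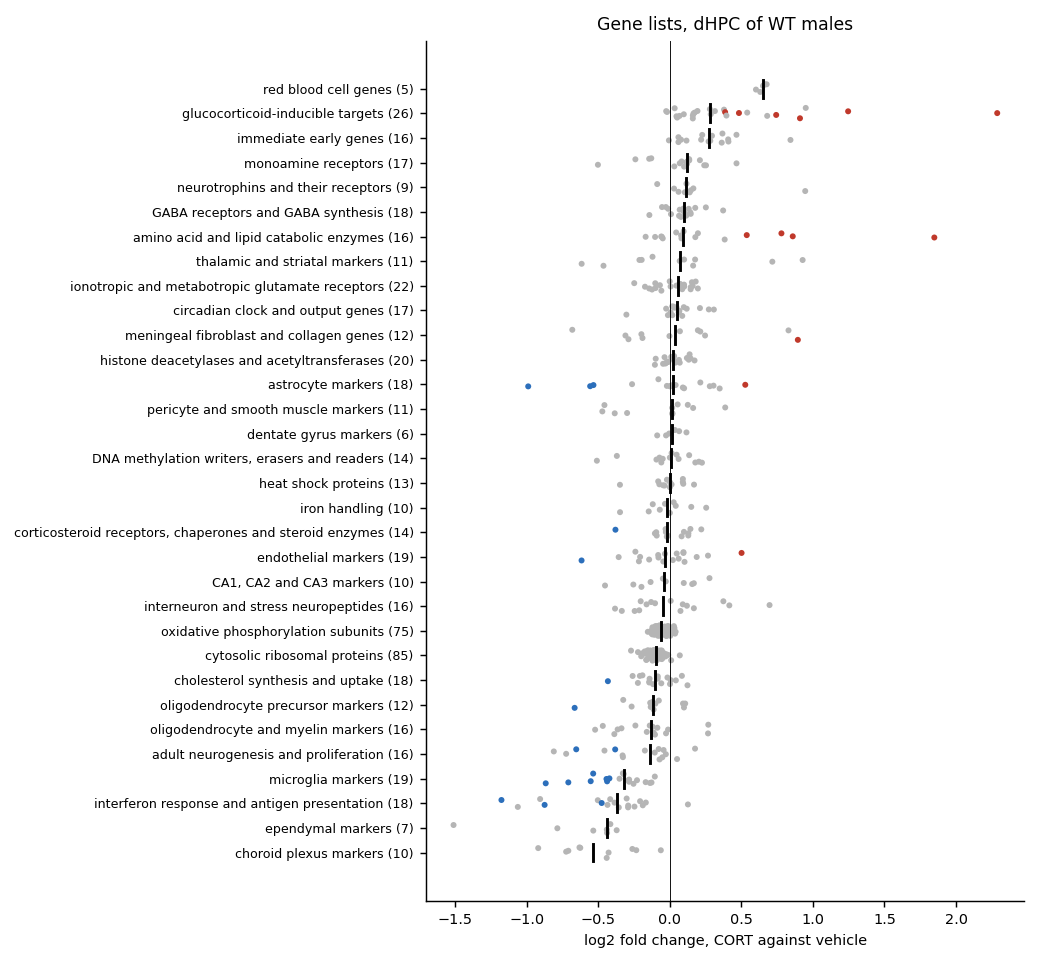
Log2 fold change of CORT against vehicle (x axis) of every measured member of the 32 gene lists (y axis, with the number of genes) in the dHPC of WT males; dots are genes, red where they rose, blue where they fell and grey where not called, and black bars are list medians. Red dots gather in the glucocorticoid-inducible and catabolic enzyme lists and blue dots in the microglia list (7) and, with 3 each, the interferon and astrocyte lists; 21 lists have no called gene.

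The genes called in WT males could be read again in comparisons with no library in common. In the dHPC of hMet males, 155 of the 181 called genes that averaged at least 1 log2 CPM had the same sign (85.6%), beside 47.7% of all 14140 genes at that average, and 62 of them had a p under 0.05 there with the same sign and 0 with the opposite sign. At a p under 0.05 the hMet male table holds 2.94% higher and 3.4% lower genes. In the vHPC of WT males 163 of the 181 had the same sign (90.1%), beside 62.4% of all genes, and 78 had a p under 0.05 there. That table holds 3.43% higher and 3.81% lower genes at this threshold, and whether its libraries came from the same animals is not stated in the labels. In the dHPC of WT females 85 of the 181 had the same sign (47.0%), beside 46.0% of all genes, and 15 had a p under 0.05, 9 with the same sign. Of the 75 genes that rose 19 had the same sign in WT females (25.3%), and of the 106 that fell 66 did (62.3%). Of all 14140 genes at that average 7388 were above 0 in WT females and 6752 below. The WT female median was under 0 for both sets, -0.10 for the genes that rose and -0.04 for those that fell. In hMet females 110 of the 181 had the same sign in the dHPC (60.8%), beside 50.3% of all genes. In the vHPC 167 did in hMet males (92.3%, beside 65.7% of all genes), 109 in WT females (60.2%, beside 58.3%) and 87 in hMet females (48.1%, beside 48.4%). The WT female table of the dHPC holds 2.58% higher and 3.91% lower genes at a p under 0.05. Over all genes the Spearman correlation of log2 fold changes with those of WT males in the dHPC was 0.01 in hMet males, 0.36 in the vHPC of WT males and -0.09 in WT females, given as a description across 14140 genes that share libraries.

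The leading genes were read in the same 3 comparisons. Fam107a was at 0.83 in hMet males and 0.84 in the vHPC of WT males, and Etnppl at 1.75 and 1.92, while in WT females they were at -0.08 and -0.44. Plin4 was at 2.42, 1.88 and 0.06 in these 3 comparisons, and Sult1a1 at 1.41, 1.09 and -0.05. The 26 glucocorticoid-inducible genes had medians of 0.06 in hMet males, 0.16 in the vHPC of WT males and -0.08 in WT females. In that order 6, 6 and 0 of them were higher at a p under 0.05, beside 2.94%, 3.43% and 2.58% of all genes, and 0 were lower. For the difference from hMet males or from the vHPC of WT males, 0 of the 26 had a p under 0.05. The 19 microglia markers had medians of -0.20, -0.27 and 0.03, with 7, 7 and 0 of them lower at a p under 0.05. Fcrls was at -0.75, -0.84 and 0.00, Itgam at -0.52, -0.69 and 0.12, and Lag3 at -0.94, -1.16 and -0.04.

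The difference between responses was tested gene by gene. Against WT females in the dHPC, 1186 of 18283 genes had a p under 0.05 for the difference, 642 with WT males above (3.51%) and 544 with WT males below (2.98%), and 0 passed adjustment (smallest adjusted p = 0.277). The 1186 were 6.49% of the genes, beside the 5% that genes with equal responses would give. Above in WT males were Epha10 (difference 0.76, SE 0.16), Folh1 (1.02, SE 0.23), Acot11 (0.68, SE 0.16), Etnppl (2.29, SE 0.53) and the amino acid transporter gene Slc43a2 (0.42, SE 0.10). For Fam107a the difference was 0.99 (SE 0.24, adjusted p = 0.304). Below were Prss35 (-1.14, SE 0.22), which had opposite signs in the sexes, and Gpsm2, Hnrnpab, Gsta4 and Mgat4b (-0.50 to -0.40 for Gpsm2, Hnrnpab and Mgat4b, and -0.59 for Gsta4). Of the 19 microglia markers 12 had a p under 0.05 with WT males below and 0 with WT males above, and of the 26 glucocorticoid-inducible genes 5 had one with WT males above and 0 below. The WT female comparison also had 13 of 19 endothelial and 6 of 11 thalamic and striatal markers lower with CORT at a p under 0.05, beside 1 and 0 in WT males, and the part of tissue composition in these differences was not tested.

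Against hMet males in the dHPC, 615 genes had a p under 0.05 for the difference, 282 with WT males above (1.54%) and 333 below (1.82%), beside the 5% that genes with equal responses would give, and 0 passed adjustment (smallest adjusted p = 0.933). The genes of smallest p were below in WT males: Tada1 (-0.37, SE 0.10), a subunit of a histone acetyltransferase complex, Ppil3 (-0.55, SE 0.14), Msmo1 (-0.42, SE 0.12) and Fdps (-0.75, SE 0.22), both of sterol synthesis, and the pseudogene Tubb4b-ps2 (-0.53, SE 0.16). Above were Gsg1l (0.55, SE 0.17), an auxiliary subunit of AMPA receptors, Tbc1d1, Elk4, Slc25a37 and Rad50 (0.38 to 0.64). Of the 18 cholesterol genes 12 had a p under 0.05 for the difference with WT males below and 0 above, and the list median was -0.10 in WT males and 0.11 in hMet males. For Fam107a the difference was 0.08 (95% interval -0.41 to 0.58), for Etnppl 0.10 (-0.93 to 1.13) and for Fcrls -0.12 (-0.88 to 0.64), intervals that leave room for sizeable differences either way.

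Against the vHPC of WT males, over 18257 genes in both tables, 337 had a p under 0.05, 176 with the dHPC above (0.964%) and 161 below (0.882%), and 0 passed adjustment (smallest adjusted p = 1.00). The 337 were 1.85% of the genes, beside the 5% that genes with equal responses would give. Apln, the peptide apelin, differed by 0.66 (SE 0.19), from -0.11 in the dHPC and -0.78 in the vHPC. Enpep, Mapk12, Urb1 and Erg followed with differences of 0.38 to 0.81, and Hnrnpab, Eif4a3l2, Eno1b, Atp6v0c-ps1 and Dcaf17 with -0.52 to -0.27. Of these, Eif4a3l2, Eno1b and Atp6v0c-ps1 are near copies of other genes, so their counts are uncertain. For Fam107a the difference between regions was 0.07 (95% interval -0.37 to 0.51) and for Fcrls -0.02 (-0.84 to 0.79). The vHPC fit had 22 residual degrees of freedom in place of 24, for a reason not given in the sources used here, and the test treats the regions as independent.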

How the data were processed

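Each library was made with a stranded TruSeq kit from bulk RNA. Before deposit, reads of low quality were dropped by the authors, who mapped the others to mm10 (GRCm38) with STAR, counted reads per gene with featureCounts and fitted limma-voom for each region. Versions, the strand setting and the filter on low genes are not given in the sources used here. The deposited log2 values are average expression, log2 fold changes and their unmoderated standard errors. The deposited score values are limma's moderated statistics. The deposited p-values are unadjusted or Benjamini-Hochberg adjusted over all genes of a table by the authors.

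The tables hold 0 columns of values per library, so depth, replicate spread, duplicate libraries and batches were not analysed here. Libraries are pools of 2 animals, and p-values measure only the spread between such pools. These columns are the authors' own comparison and were used as such. Before that, p was recomputed from the deposited moderated statistic and the total degrees of freedom (largest relative deviation 3.78e-13). That check does not cover the fold changes or their errors. The study's own lists of called genes were not used.

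Moderated errors were the fold change divided by the moderated statistic, and 95% intervals used the total degrees of freedom. Differences between responses were tested from both fold changes and moderated errors, with adjustment over all genes. This treats the 2 fold changes as independent, although the dHPC tables share 1 estimate of spread. A design with limma on library values could not be fitted for the same reason. The code was tested on simulated data. GENCODE M21 had an entry for 18253 of 18283 genes and gave positions and exon overlaps, and 44 of 148 named genes overlapped exons of another gene, 13 of them on the same strand. Python 3.11.15, pandas 2.3.3, scipy 1.17.1 and matplotlib 3.10.9 were used.

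The comparison and the 32 gene lists (595 distinct genes) were chosen with earlier results of these data known. Named were the 20 genes of smallest p in each direction among those called whose average reached 1 log2 CPM, without predicted genes, every called list member, up to 3 of the highest expressed members of lists without one, the 5 genes of smallest p in each direction for each difference, and Nr3c1, Nr3c2, Fkbp5, Sgk1, Tsc22d3 and Bdnf. Other list members in the text were chosen after their values were seen. A few genes that the rule names are not reported here. Alternatives were other thresholds, the expression filter, centring and unmoderated errors.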

Additional observations from a re-analysis of the deposited data

How the results depend on the processing

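The count of called genes depended on the threshold. From 385 (156 higher, 229 lower) it went to 831 (367 and 464) without the fold filter, 215 (80 and 135) at an FC over 1.5, 181 (75 and 106) at an average of at least 1 log2 CPM, 119 (53 and 66) at a p under 0.01, 5 (5 and 0) at an adjusted p under 0.25, and 0 (0 and 0) at an adjusted p under 0.05 in limma. List members called went from 32 to 58 without the fold filter. The number of genes whose response differed from the vHPC at a p under 0.05 went from 337 to 214 over genes averaging 1 log2 CPM or more. With unmoderated errors 374 genes were called (363 of them also in the moderated test), and after the median of -0.0036 was subtracted 381. Centring ended the calls of Hopx and Hsd11b1, which lie at the fold threshold, and the unmoderated error that of Enpp6. Of the 148 named genes 30 lost the call at an FC over 1.5 and 11 at a p under 0.01. Many of the 148, such as Nr3c1 and Bdnf, were not called at the main threshold and had no call to lose. Over members averaging 1 log2 CPM or more, the medians of lists without a call turned sign for the thalamic and striatal markers (0.07 to -0.01) and the neuropeptides (-0.05 to 0.07). The direction of a called gene could not change under these alternatives. Only centring moved the fold changes, and the median of -0.0036 is far smaller in size than the fold threshold. No paired analysis was possible because the tables hold no values per library, and leaving out replicates was not run for the same reason. A gene averaging under 0 log2 CPM needed a change of about 1.73-fold for its 95% interval to leave 0, and one over 5 log2 CPM about 1.13-fold.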
